A study of Mus musculus with 141 samples.

Results

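Gata2 transcripts were already present in some mouse bone marrow cells sorted as granulocyte/monocyte progenitors (GMP), and these cells were set against progenitors sorted for the basophil and mast cell lineages (BMCP) to see which transcripts were higher or lower in BMCP. The members were chosen by their Gata2 level: GMP with at least 100 CPM of Gata2 form the small side, and all BMCP form the large side. CPM are a gene's reads scaled to 1000000 reads of nuclear-encoded genes in the same cell. Of the 141 cells of the series, 130 passed the limits of at least 50000 nuclear-encoded counts, at most 10% mitochondrial counts and at most 50% spike-in reads. Of these, 18 Gata2-positive GMP and 89 BMCP make up the 107 members, and the other 23 kept GMP serve as a reference level. Every cell came from 3 female C57BL/6 mice, with no genetic change and no treatment named. The labels give no age. The gate for BMCP took live cells without lineage markers or Sca1 that carried Kit and had much integrin beta7 and CD16/32. GMP had been gated as CD34-positive and CD16/32-high cells that were also Kit-positive and Sca1-negative and lay outside the gate for BMCP. Each cell was sorted on its own, and its polyadenylated RNA was amplified and sequenced, with ERCC spike-in RNA added. No label says which mouse a cell came from, so each side is 1 sample without replicates. No test and no p-value was possible, and cells were not used as replicates.

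Gata2 is a zinc-finger transcription factor that stem and early progenitor cells use, and that basophils and mast cells keep on while neutrophils and monocytes shut it off. Mast cells and basophils store proteases, histamine and proteoglycan in granules and carry the high-affinity receptor for immunoglobulin E. Neutrophil precursors fill azurophil granules with another set of proteins, among them myeloperoxidase and the serine proteases elastase, proteinase 3 and cathepsin G. Progenitors that can give rise to several of these lineages are known to carry transcripts of more than one of them.

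The 18 Gata2-positive GMP held a median of 1341838 nuclear-encoded counts per cell (range 130191 to 2595936) and the 89 BMCP a median of 893037 (range 96129 to 2416630). The values below sum the counts of all cells of a side. Their 95% Poisson limits cover counting error only, since amplified reads without molecular identifiers are not independent molecules. BMCP libraries held fewer genes. At 200000 reads per cell the median was 4013 genes in 86 BMCP, 5382 in 17 Gata2-positive GMP and 5908 in 23 other GMP, 3 BMCP and 1 Gata2-positive GMP being too shallow. The median share of spike-in reads was 11.3%, 6.68% and 5.90% in the same order. With ratios set to the spike-in counts, the median log2 ratio over all counted genes moved from 0.05 to -0.67, and with TMM factors to 0.19. Cells that stood apart were BMCP number 12, with the lowest Gzmb of all BMCP and nearly all of the Prss34 reads, and the shallow GMP number 8, with 30.2% spike-in reads. In the deposited table, BMCP numbers 1 to 47 and 48 to 94 form blocks of columns and all GMP form another, so that a difference between blocks and one between populations cannot be told apart. The part of depth, spike-in share and block in the results was not tested.

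The promoters of 3 genes that were high in BMCP and of 3 that were high in GMP are shown because they encode granule proteins described below. Of the 6, Cpa3 was not past 4-fold. Each runs 5′ to 3′ on the gene's strand, from 250 bases before to 50 after the RefSeq start on GRCm38.p6. Capitals mark letters that were searched on both strands: GATAA for GATA factors, TGTGGT for RUNX factors, TTGCNNAA for C/EBP factors and GAGGAA for ETS factors such as PU.1. Gzmb lies at chr14:56262285-56262584 (minus strand) with TGTGGT at 2 places, Cma1 at chr14:55944626-55944925 (minus) with 1 GATAA and 1 TGTGGT, and Cpa3 at chr3:20242132-20242431 (minus) with 1 of each as well. Elane lies at chr10:79886062-79886361 (plus) and Prtn3 at chr10:79879417-79879716 (plus), each with 1 GAGGAA, and Mpo at chr11:87793534-87793833 (plus) with 2.
Gzmb: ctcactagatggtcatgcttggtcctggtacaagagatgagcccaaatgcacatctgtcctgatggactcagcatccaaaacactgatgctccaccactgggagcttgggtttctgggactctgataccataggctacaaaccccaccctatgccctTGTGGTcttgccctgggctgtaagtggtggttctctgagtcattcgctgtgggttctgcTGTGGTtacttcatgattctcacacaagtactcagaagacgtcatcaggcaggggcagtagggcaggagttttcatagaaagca
Cma1: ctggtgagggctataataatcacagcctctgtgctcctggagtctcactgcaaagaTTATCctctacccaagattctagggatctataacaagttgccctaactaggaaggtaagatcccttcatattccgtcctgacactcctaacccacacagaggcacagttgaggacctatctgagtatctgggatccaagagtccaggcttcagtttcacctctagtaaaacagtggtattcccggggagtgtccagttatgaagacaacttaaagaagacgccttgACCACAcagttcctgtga
Cpa3: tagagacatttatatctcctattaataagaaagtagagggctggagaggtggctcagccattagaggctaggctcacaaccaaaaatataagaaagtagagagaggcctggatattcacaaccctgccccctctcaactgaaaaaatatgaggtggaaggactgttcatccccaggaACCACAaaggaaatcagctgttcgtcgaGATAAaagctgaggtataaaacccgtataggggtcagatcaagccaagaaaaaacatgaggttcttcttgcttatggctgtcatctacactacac
Elane: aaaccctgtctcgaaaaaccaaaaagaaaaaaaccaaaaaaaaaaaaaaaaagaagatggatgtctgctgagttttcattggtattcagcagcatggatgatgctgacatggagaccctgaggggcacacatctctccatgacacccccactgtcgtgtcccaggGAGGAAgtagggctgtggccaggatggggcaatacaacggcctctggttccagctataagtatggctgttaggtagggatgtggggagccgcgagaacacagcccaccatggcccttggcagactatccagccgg
Prtn3: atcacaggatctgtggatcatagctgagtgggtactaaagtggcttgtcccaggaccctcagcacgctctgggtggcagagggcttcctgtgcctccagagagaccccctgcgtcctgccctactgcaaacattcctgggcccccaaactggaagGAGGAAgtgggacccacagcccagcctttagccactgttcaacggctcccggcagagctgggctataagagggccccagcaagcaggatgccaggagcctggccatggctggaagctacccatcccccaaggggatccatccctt
Mpo: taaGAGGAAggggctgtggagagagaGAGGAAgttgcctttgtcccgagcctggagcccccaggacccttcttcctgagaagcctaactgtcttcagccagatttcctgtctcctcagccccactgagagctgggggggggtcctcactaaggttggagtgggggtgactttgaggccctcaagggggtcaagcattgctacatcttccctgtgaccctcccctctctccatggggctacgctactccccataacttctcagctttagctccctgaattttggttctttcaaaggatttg
Of all 32851 promoters of the table, 28.3% hold GAGGAA, 25.4% GATAA, 16.8% TGTGGT and 10.8% TTGCNNAA. Of the 12 genes named below for the largest ratios towards Gata2-positive GMP, 8 had a promoter in the table and 7 of these held GAGGAA, 2 held TGTGGT, 1 held TTGCNNAA and none GATAA. Of the 12 named for the largest ratios towards BMCP, 10 had one, and 1 held GAGGAA, 3 TGTGGT, 2 GATAA and none TTGCNNAA. These letters are matches in short windows and say nothing of binding.

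Of the 4 marker genes, Gzmb and Mpo parted the sides without overlap, while Gata2 and Cpa3 overlapped. The share of all counted genes that part the sides in this way is not given. This and the later counts of cells beyond the other side are therefore descriptions only. Gata2, at chr6:88193891-88207032 in the GENCODE vM21 annotation, chose the cells and is given only as a description. Its level over the BMCP was 2083 CPM (2073 to 2093), and over the Gata2-positive GMP 630 CPM (620 to 640). By cell it ran from 203 through a median of 1917 to 5467 CPM in BMCP, and from 106 through 369 to 2144 CPM in the Gata2-positive GMP. The GMP nearest the threshold on the inside was number 2 with 106 CPM, and the nearest outside were number 9 with 55.8 and number 15 with 42.9 CPM. Of the 89 BMCP, 36 lay above the highest Gata2-positive GMP.

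Cpa3, the carboxypeptidase of mast cell granules at chr3:20215620-20242181, had a BMCP level of 5612 CPM (5596 to 5628), against 1869 CPM (1852 to 1886) in Gata2-positive GMP and 108 CPM in the other GMP. Its range by cell was 94.0 to 30931 CPM with a median of 2728 in BMCP, and 1.95 to 4706 CPM with a median of 1581 in Gata2-positive GMP. Cpa3 was thus split within the small side: 13 of the 18 had at least 458 CPM, and the other 5 had 1.95 to 69.1 CPM. Gzmb, the serine protease granzyme B at chr14:56258838-56262260, had a BMCP level of 6516 CPM (6499 to 6533) against 1.10 CPM (0.728 to 1.61) in Gata2-positive GMP, a 5898-fold difference. Every BMCP lay above every Gata2-positive GMP, with 30.4 to 22649 CPM against 0 to 3.70 CPM. Mpo, the myeloperoxidase of azurophil granules at chr11:87793581-87804413, showed the opposite: 26600 CPM in Gata2-positive GMP against 14.6 CPM (13.8 to 15.5) in BMCP, a 1816-fold difference. Its lowest Gata2-positive GMP, at 509 CPM, lay above the highest BMCP, at 389 CPM. The other GMP had 0.965 CPM of Gzmb and 35339 CPM of Mpo. Thinned to 200000 reads per cell, 24 of 86 BMCP had 2 or more reads of Mpo (27.9%, exact limits 18.8 to 38.6%), and 3 had 10 or more. Such limits cover the drawing of cells from these mice only, not a spread between mice.

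**Figure D1:**
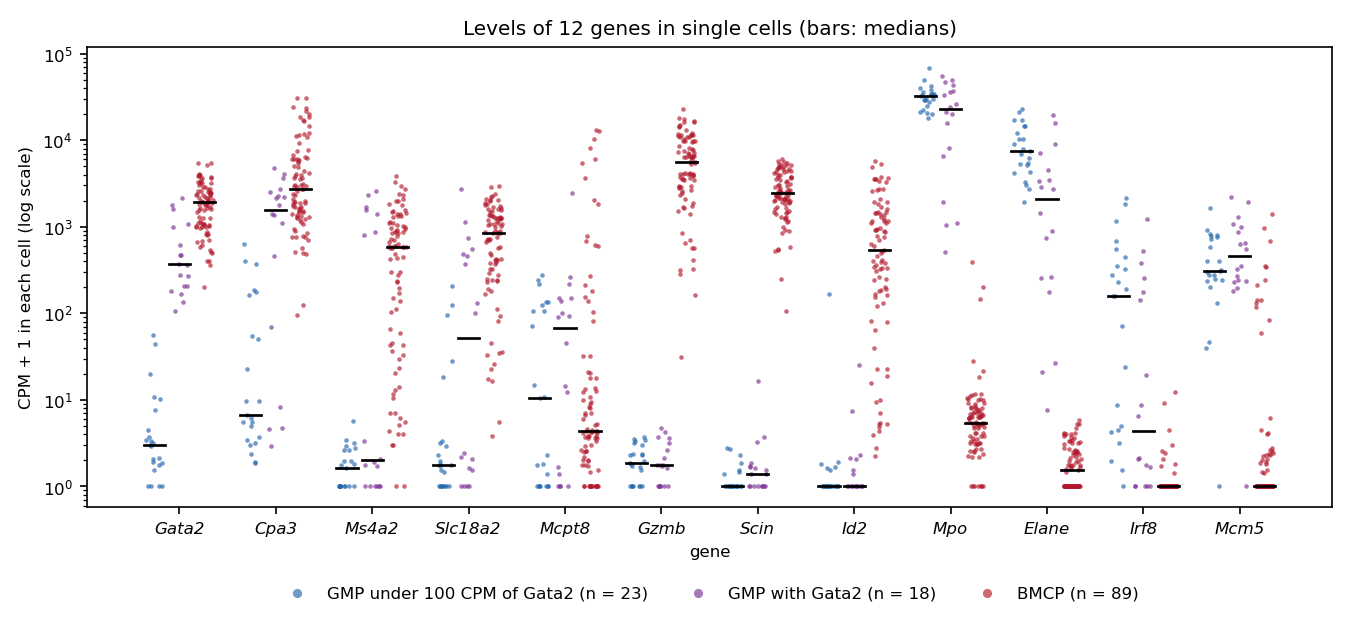
CPM plus 1 (y axis, log scale) of 12 genes (x axis) in single cells; dots are cells of the 23 other GMP (blue), 18 Gata2-positive GMP (purple) and 89 BMCP (red), and bars are medians. Gzmb and Scin lie high in all BMCP and near 0 in both GMP groups, Mpo shows the reverse, and Ms4a2 in Gata2-positive GMP splits into 7 cells above 100 CPM and 11 near 0.

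Across the 11780 genes with at least 5 CPM on either side, 1812 had a log2 ratio of CPM plus 1 that was 4-fold or more towards BMCP, and 961 one that was 4-fold or more towards the Gata2-positive GMP. The background is therefore 15.4% higher in BMCP and 8.16% lower, and 51.8% of the genes lay within 2-fold. The shares past 4-fold belong beside every count of list members below, and a count near them shows nothing of its list. Which direction had more genes depended on the scale, with 1100 higher and 1670 lower under spike-in scaling and 290 higher and 2518 lower with the median of the cells. These shares are over counted genes, whereas a list is described over all of its members, counted or not, so that list shares have a wider denominator.

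The largest ratios towards BMCP were those of Gzmb and Scin. A rule of size picked 12 of 644 candidates, with detection in at least 50% of BMCP and no cell holding 50% of the reads. Next to Gzmb stood Scin, which encodes the actin-severing protein scinderin, with 2936 CPM (2924 to 2948) in BMCP against 0.655 CPM (0.374 to 1.06) in Gata2-positive GMP. In single cells Scin was at 104 to 6101 CPM in BMCP, with a median of 2446, and at 0 to 15.4 CPM in Gata2-positive GMP, so that all 89 BMCP lay above them. As the rule chose genes by the ratio between these same cells, such counts follow in part from the choice. Cma1, the chymase of connective tissue mast cells, stood at 1510 CPM (1502 to 1518) against 0.286 CPM (0.115 to 0.590), but its BMCP cells ran from 0 through a median of 12.97 to 34300 CPM. Only 25 of 89 BMCP reached 100 CPM of Cma1, and the level was 3189 CPM in BMCP numbers 1 to 47 and 495 CPM in numbers 48 to 94. Id2, an inhibitor of helix-loop-helix factors, stood at 1060 CPM against 3.15 CPM (0.685 CPM without GMP number 30), and 74 of 89 BMCP lay above all Gata2-positive GMP. Rab19, a small GTPase, stood at 403 CPM against 2.91 CPM, where GMP number 24 held 98.6% of the reads and 0.0435 CPM remained without it.

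The remaining genes of that rule, Klf6 apart, were present in 45 to 52 of 86 thinned BMCP. Atp8b5, which encodes a flippase that moves lipids across membranes, was at 374 CPM in BMCP and at 2 reads in all 18 Gata2-positive GMP (0.0818 CPM, 0.00991 to 0.296). Ahnak, a very large scaffold protein, was at 184 CPM against 3 reads (0.123 CPM, 0.0253 to 0.359). Hes1, a repressor that Notch signals induce, was at 117 CPM against 0.245 CPM (0.0873 CPM without GMP number 18). After thinning, Atp8b5 was seen in 48, Ahnak in 52 and Hes1 in 45 of 86 BMCP, and each in none of 17 Gata2-positive GMP. The rule chose these genes for a low level in the same cells, so this count sets no limit on their share among such GMP. Klf6, a zinc-finger factor, was seen in 71 of 86 BMCP, at 495 CPM against 12.4 CPM in Gata2-positive GMP (6.93 CPM without number 2). The gene 2610307P16Rik was at 117 CPM against 0.614 CPM (0.0834 CPM without GMP number 20). Rapgef2, an exchange factor for Rap proteins, and the kinesin Kif21b were higher in BMCP than in both groups of GMP: 152, 1.68 and 27.3 CPM for Rapgef2 and 245, 4.01 and 35.8 CPM for Kif21b, in BMCP, Gata2-positive GMP and other GMP. Without their highest cells, the Gata2-positive GMP had 0.171 CPM of Rapgef2 and 0.626 CPM of Kif21b, and the other GMP 16.98 and 16.4 CPM, numbers 7, 20, 28 and 29 being those cells.

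Of the 11 genes on the mast cell list, 4 were at least 4-fold higher in BMCP, none was lower and 7 were under 5 CPM on both sides, with a list median of 0.017. The 4 were Gzmb, Cma1, Mitf and Tpsb2. Mitf, the transcription factor that mast cells need, was at 78.8 CPM in BMCP and at 5 reads in Gata2-positive GMP (0.205 CPM, or 0.0847 CPM without number 19), and 25 of 89 BMCP reached 100 CPM. Tpsb2, a tryptase, came to 11.8 CPM from a single cell, BMCP number 36, without which it was 0.0359 CPM. Mcpt4, Mcpt2, Mrgprb1 and Tph1 had no read on either side. The summed level of the list was 39.3 to 43324 CPM by cell in BMCP and 0 to 3.70 CPM in Gata2-positive GMP, which did not overlap. Gzmb parted the sides by itself, so this sum shows nothing of the other members.

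Genes shared by basophils and mast cells differed less between the sides than Gzmb and Cma1 did, and many Gata2-positive GMP carried them. Of 12 genes, all counted, 1 stood at least 4-fold higher in BMCP, another at least 4-fold lower, and the list median was 1.25 beside 0.05 for all counted genes. Ms4a2, which encodes the beta chain of the receptor for IgE, had 781 CPM (775 to 787) in BMCP, 619 CPM (609 to 629) in Gata2-positive GMP and 0.804 CPM in the other GMP. It was an on-or-off gene in the small side: 7 of 18 Gata2-positive GMP held 795 to 2581 CPM and 11 held 0 to 2.40 CPM. Within the 7, Ms4a2 lay inside the range of BMCP, which ran from 0 through 583 to 3876 CPM. Its direction was not stable, with log2 ratios of 0.33 here, -0.35 with spike-in scaling and -1.23 against the 6 GMP of at least 500 CPM of Gata2.

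Slc18a2, the transporter that loads amines into vesicles, was at 927 CPM in BMCP, 279 CPM in Gata2-positive GMP and 26.4 CPM in the other GMP (17.6 CPM without number 6). By cell it ran from 0 through a median of 50.7 to 2707 CPM in Gata2-positive GMP and from 2.85 through 847 to 2985 CPM in BMCP. Il1rl1, the receptor of interleukin 33, was at 314, 127 and 0.161 CPM in the same order of groups. Both were thus present in part of the Gata2-positive GMP: 8 of 18 reached 100 CPM of Slc18a2 and 6 reached 100 CPM of Il1rl1. Fcer1g, the gamma chain that IgE and IgG receptors share, was at 1209, 339 and 265 CPM, and the granule membrane protein Cd63 at 893, 346 and 139 CPM. Csf2rb, the common beta chain of the interleukin 3 receptor family, was at 507, 219 and 89.6 CPM, and Srgn, the core protein of granule proteoglycan, at 3807, 2756 and 2002 CPM. For these 4 genes the level in Gata2-positive GMP lay between the levels of the other 2 groups.

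Fcer1a, Hdc, Il3ra and Hgf did not follow that order. Fcer1a, the alpha chain that binds IgE, had no read in any Gata2-positive GMP or other GMP and in BMCP stood at 127 CPM (125 to 129), at least 1035-fold higher over a floor of 3 counts across the group. After thinning it was seen in 17 of 86 BMCP (19.8%, 11.96 to 29.75%), and its level was 313 CPM in BMCP numbers 1 to 47 and 14.5 CPM in numbers 48 to 94. Hdc, the enzyme that forms histamine, was highest in the Gata2-positive GMP: 238 CPM in BMCP, 678 CPM in Gata2-positive GMP and 393 CPM in the other GMP. All 18 Gata2-positive GMP held Hdc, from 158 through 579 to 1982 CPM, while BMCP ran from 0 through 16.6 to 1643 CPM. Il3ra, the alpha chain of the interleukin 3 receptor, was at 47.4, 99.1 and 47.4 CPM, and Hgf, hepatocyte growth factor, at 10.98, 61.95 and 22.8 CPM (7.29 CPM in BMCP without number 28, and 14.3 CPM in the other GMP without number 26).

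The basophil list gave 5 of 8 genes at least 4-fold higher in BMCP and none lower, with a median of 2.84, but single cells carried much of it. Il6, a cytokine, was the most widespread, at 272 CPM in BMCP (median 202 CPM by cell) and 23.0 CPM in Gata2-positive GMP, or 8.66 CPM without number 24. Cyp11a1, the enzyme that starts steroid synthesis, had 600 CPM in BMCP against 59.8 CPM in Gata2-positive GMP, or 6.19 CPM without GMP number 3. Il4 was at 28.9 and 0.573 CPM, all of the latter from GMP number 30, and the integrin chain Itga2 at 14.3 and 0.0409 CPM. Mcpt8, the basophil protease, had 680 CPM in BMCP against 246 CPM in Gata2-positive GMP, of which GMP number 3 gave 75.2% (66.1 CPM without it). Its medians by cell were in the opposite order, with 67.2 CPM in Gata2-positive GMP against 3.39 CPM in BMCP, and 19 of 89 BMCP and 6 of 18 Gata2-positive GMP reached 100 CPM and 8 of the 23 other GMP did so as well. Prss34, another basophil protease, was at 122 CPM in BMCP, but BMCP number 12 gave 99.5% of this. Without that cell Prss34 stood at 0.589 CPM and was lower in BMCP, at a log2 ratio of -3.90, against 22.8 CPM in Gata2-positive GMP (10.8 CPM without number 12). Cd200r3 had 16.8 CPM in BMCP against 16.7 CPM in Gata2-positive GMP, or 2.75 CPM without GMP number 20. Il13 had 16 reads in BMCP and none in Gata2-positive GMP.

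A search for genes that both sides carried alike, within 2-fold of each other and at least 4-fold above the other GMP on both sides, with detection in at least 50% of the thinned cells of both, found 6, of which 5 are described. Itga2b, the integrin chain CD41 of early progenitors and platelets, had 294 CPM (291 to 298) in BMCP, 296 CPM (289 to 303) in Gata2-positive GMP and 19.6 CPM in the other GMP, or 12.2 CPM without number 10. Of the thinned cells, 47 of 86 BMCP and 9 of 17 Gata2-positive GMP held it. Ikzf2, the transcription factor Helios, was at 694, 405 and 85.6 CPM, and Stk38, a kinase of the NDR family, at 240, 191 and 39.3 CPM. Heg1, a membrane protein known from blood vessels, was at 156, 118 and 21.6 CPM, and Asph, an aspartate hydroxylase, at 305, 165 and 37.97 CPM, or 103 CPM in Gata2-positive GMP without number 24 and 22.2 CPM in the other GMP without number 29. Gata2 and Ms4a2 are outside this set, Gata2 because its sides differed by 3.31-fold and Ms4a2 because 7 of 17 thinned Gata2-positive GMP had 2 or more reads of it (6 had 10 or more).

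**Figure D2:**
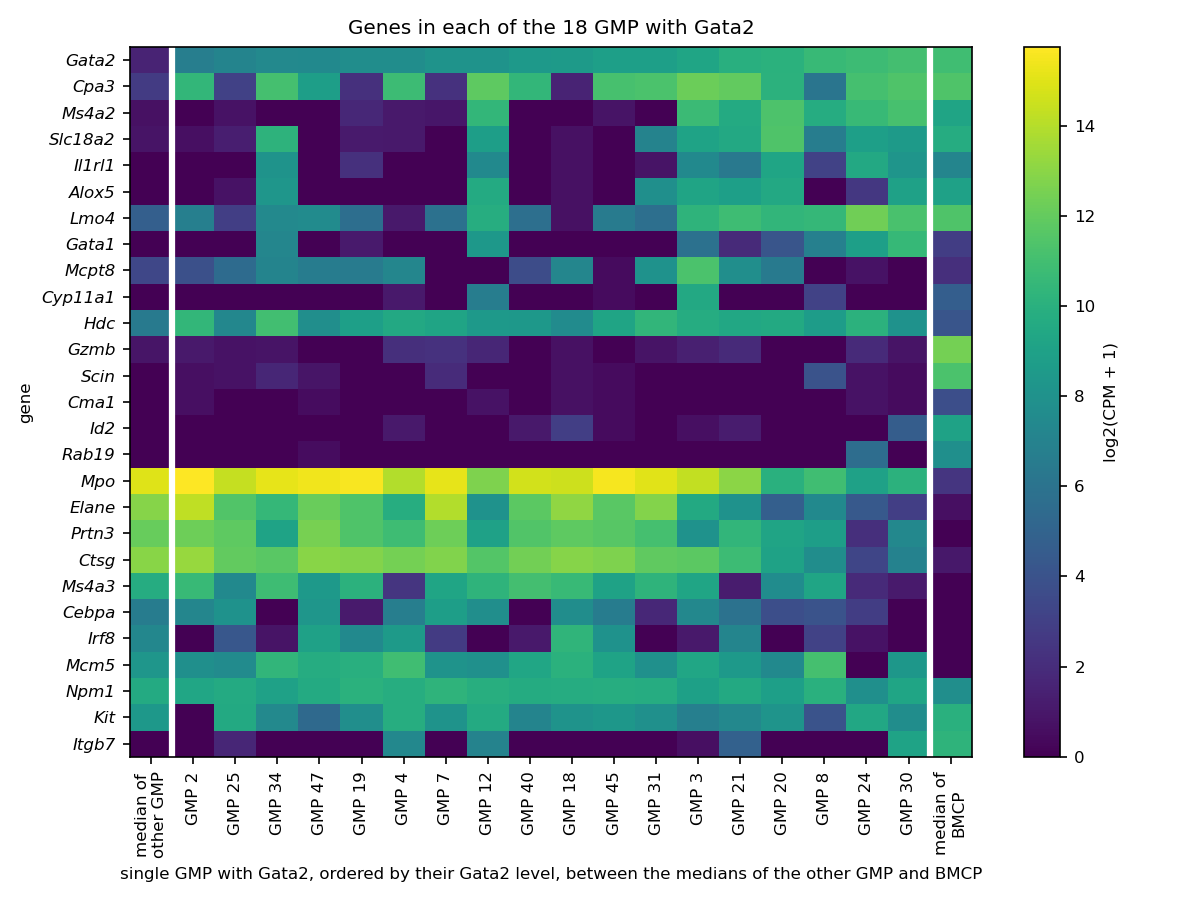
Log2 of CPM plus 1 (colour) of 27 genes (rows) in each of the 18 Gata2-positive GMP (columns, ordered by Gata2), with the medians of the 23 other GMP at the left edge and of the 89 BMCP at the right edge. Gzmb and Cma1 are dark in all 18 columns. Scin and Id2 are too, apart from Scin at 15.4 CPM in number 8 and Id2 at 24.5 CPM in number 30. Mpo is bright in nearly all columns, and Ms4a2 and Gata1 are bright mostly in the columns at the right.

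Early granulocyte genes were mostly lower in BMCP. Of the 10 azurophil granule and early granulocyte genes, 8 passed 4-fold towards lower levels in BMCP and none towards higher, and the list median was -7.01. Elane, neutrophil elastase, had 0.962 CPM (0.764 to 1.19) in BMCP, 4395 CPM (4369 to 4422) in Gata2-positive GMP and 9597 CPM in the other GMP. By cell Elane ran from 6.72 through 2094 to 19303 CPM in Gata2-positive GMP and reached 4.79 CPM at most in BMCP, with no overlap. Prtn3, proteinase 3, was at 14.3, 2426 and 4645 CPM, and 15 of the 18 Gata2-positive GMP lay above every BMCP. In BMCP, number 50 held 44.2% of the Prtn3 reads, and the level without it was 8.21 CPM. Ctsg, cathepsin G, was at 44.4, 4761 and 8079 CPM, and BMCP number 12 gave 64.1% of its BMCP reads (16.1 CPM without it).

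The levels of Mpo, Elane, Prtn3 and Ctsg were lower in the Gata2-positive GMP than in the other GMP, a contrast between cells split by Gata2 that is given as a description. Prss57, a serine protease of azurophil granules, was at 2 reads in all BMCP, 236 CPM in Gata2-positive GMP and 209 CPM in the other GMP. Ms4a3, a membrane protein known from GMP, had levels of 1.09 CPM in BMCP (0.0965 CPM without number 44), 732 CPM in Gata2-positive GMP and 1053 CPM in the other GMP. Csf3r, the receptor for granulocyte colony-stimulating factor, had 3 reads in BMCP and 57.8 CPM in Gata2-positive GMP, and Cebpe, a factor of granule maturation, had 1 read and 51.3 CPM. Both were absent or scarce in many Gata2-positive GMP too, with medians by cell of 0.193 and 0.659 CPM. Gfi1, a repressor that neutrophil development needs, had 12.8 CPM in BMCP (6.59 CPM without number 74) and 35.6 CPM in Gata2-positive GMP (14.2 CPM without number 18). Fcnb had no read on either side.

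The size rule in that direction took 12 of 2414 candidates: Elane, Mpo, Ms4a3, Prss57 and Prtn3, which are on the early granulocyte list, and Hp, Hk3, Anxa3, Igsf6, Gatm, Ly6c2 and Lbp, which are not. Hp, haptoglobin, came to 2 reads in all BMCP and 313 CPM (306 to 320) in Gata2-positive GMP, ranging from 0 through 153 to 1619 CPM. Hk3, a hexokinase of myeloid cells, came to 4 reads and 258 CPM, and the annexin Anxa3 to 3 reads and 250 CPM. Gatm, an enzyme of creatine synthesis, came to 3 reads and 222 CPM. Between 11 and 14 of the 18 Gata2-positive GMP lay above every BMCP for these 4 genes, which follows in part from the rule that chose them by the ratio between the same cells. Igsf6, a membrane protein of the immunoglobulin superfamily, was at 0.154 CPM in BMCP (0.0358 CPM without number 5) and 257 CPM in Gata2-positive GMP, and Lbp, which binds bacterial lipopolysaccharide, at 0.356 CPM (0.0241 CPM without number 27) and 190 CPM.

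Monocyte and dendritic cell genes were lower in BMCP for 5 of 11 list members and higher for 1, with a median of -0.22, or -1.05 with genes at no read on 1 side set to the floor of 3 counts. The median was -0.38 without GMP number 45 or number 30 and -0.13 without number 18. Irf8, the factor that directs monocyte and dendritic cell fate, was at 0.202 CPM in BMCP (0.108 CPM without number 1), 179 CPM in Gata2-positive GMP (108 CPM without number 18) and 348 CPM in the other GMP. Only 6 of the 18 Gata2-positive GMP reached 100 CPM of Irf8, and no BMCP exceeded 11.4 CPM. Csf1r, the receptor for macrophage colony-stimulating factor, had 0.0475 CPM in BMCP against 85.1 CPM in Gata2-positive GMP, or 53.8 CPM without number 45. Ly6c2, one of a pair of near-identical genes for the monocyte surface protein Ly6C whose reads are uncertain, was at 0.142 CPM in BMCP, 237 CPM in Gata2-positive GMP and 955 CPM in the other GMP. F13a1 was at 25.9 CPM in Gata2-positive GMP (10.2 CPM without number 25) against 137 CPM in the other GMP, and nearly all Ly86 reads of the small side came from number 47. The exception was Cx3cr1, the fractalkine receptor, at 293 CPM in BMCP, 33.1 CPM in Gata2-positive GMP (10.5 CPM without number 30) and 0.579 CPM in the other GMP, with 48 of 89 BMCP at 100 CPM or more. Late neutrophil genes were scarce throughout, with 6 of 9 under 5 CPM on both sides. Mmp8 was at least 4-fold higher in BMCP, at 13.4 CPM or 6.92 CPM without number 3 and with no read in Gata2-positive GMP, and Ngp and Lcn2 were lower, each resting on 1 Gata2-positive GMP.

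**Figure D3:**
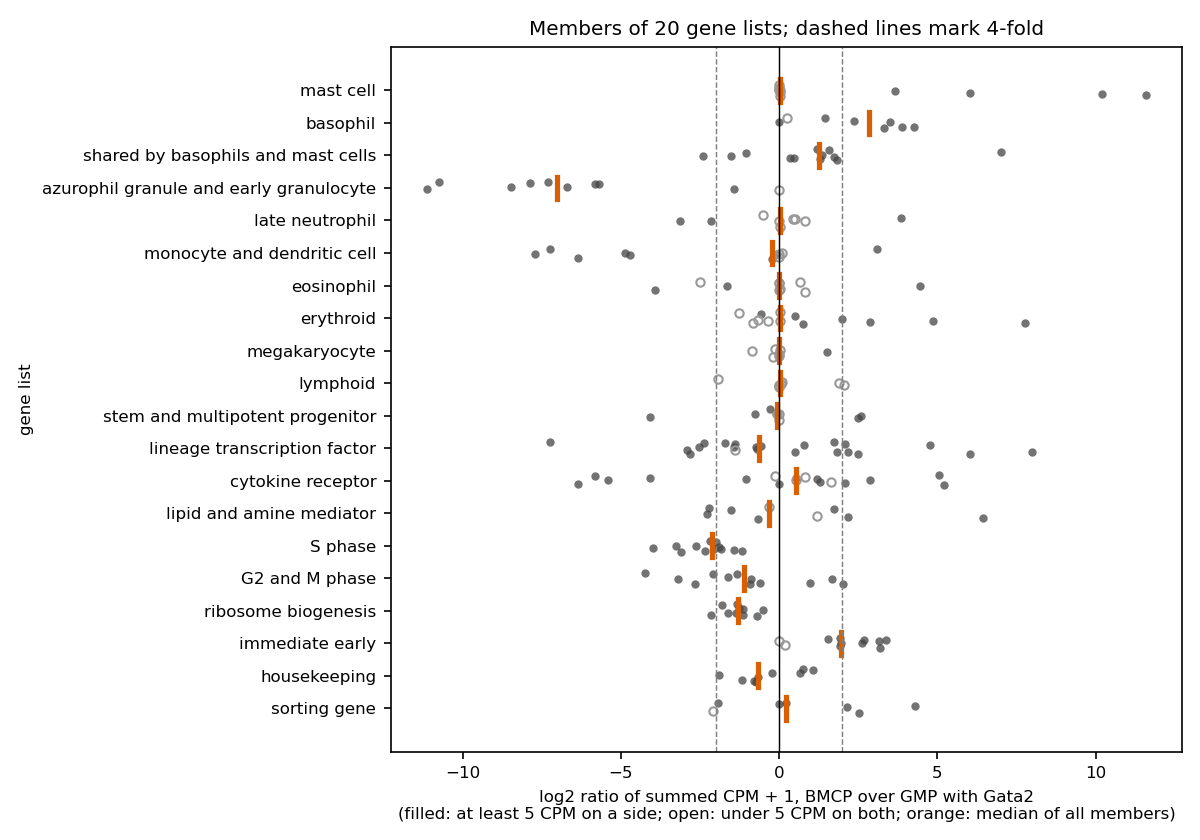
Log2 ratio of summed CPM plus 1, BMCP over Gata2-positive GMP (x axis), for the members of 20 gene lists (y axis); filled dots are genes of at least 5 CPM on a side, open dots are below it on both, orange bars are medians over all members and dashed lines mark 4-fold. The azurophil bar lies at -7.01, the bar for genes shared by basophils and mast cells at 1.25 and the S phase bar at -2.12.

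Another pattern was that of genes at least 4-fold higher in Gata2-positive GMP than in BMCP and than in the other GMP. Genes also needed 20 CPM, detection in at least 50% of the thinned Gata2-positive GMP and no cell with 50% of the reads. These limits left 6 genes. Slc7a8, an amino acid transporter, was at 160 CPM (155 to 165) in Gata2-positive GMP, 13.2 CPM in BMCP (8.49 CPM without number 18) and 19.1 CPM in the other GMP (6.39 CPM without number 39). By cell Slc7a8 ran from 0 through 42.2 to 579 CPM in Gata2-positive GMP, and 8 of the 18 reached 100 CPM. Wee1, the kinase that holds back entry into mitosis, was at 116, 18.4 and 18.9 CPM in the same order, and Zmpste24, the protease that processes prelamin A, at 83.6, 14.5 and 7.66 CPM (4.05 CPM in the other GMP without number 37). Wdr41 was at 133, 20.0 and 12.9 CPM and D030028A08Rik at 131, 28.9 and 18.7 CPM (12.1 CPM in the other GMP without number 10). Mfap1a, which takes part in splicing, had levels of 72.4, 12.99 and 16.7 CPM (43.2 CPM in Gata2-positive GMP without number 24). The comparison of Gata2-positive with other GMP is the one that chose the cells.

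Transcription factors differed in both directions. Of 22 lineage factors, 6 stood at least 4-fold higher in BMCP (Id2, Mitf, Bach2, Meis1, Tal1 and Ikzf1) and 5 stood lower by as much (Irf8, Lmo2, Cebpb, Zfpm1 and Cebpa). Among all counted genes these shares were 15.4% and 8.16%. The list median was -0.63 (-0.40 without GMP number 18 and -0.037 without number 30). Meis1, a homeodomain factor of stem cells and megakaryocytes, had 382 CPM in BMCP against 67.3 CPM in Gata2-positive GMP, or 40.8 CPM without number 7. Tal1, a helix-loop-helix partner of GATA factors, was at 139 and 29.6 CPM, and Ikzf1, the factor Ikaros, at 899 and 210 CPM. Ikzf1 was widespread, with 84 of 89 BMCP and 10 of 18 Gata2-positive GMP at 100 CPM or more. Bach2, a repressor best known from lymphocytes, was at 27.2 CPM in BMCP (17.96 CPM without number 18) and at 1 read in Gata2-positive GMP.

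Cebpa, which drives granulocyte and monocyte development, was at 24.3 CPM in BMCP, 129 CPM in Gata2-positive GMP and 126 CPM in the other GMP, and ran from 0 through 77.3 to 459 CPM in the Gata2-positive cells. Lmo2, an adaptor of the GATA and Tal1 complex, was at 37.3, 286 and 387 CPM, and Zfpm1, the GATA cofactor FOG-1, at 1.21, 11.6 and 12.5 CPM (0.155 CPM in BMCP without number 24 and 5.36 CPM in the other GMP without number 15). Runx1, a factor of all blood lineages, and Lmo4, a LIM-only adaptor, were 3.55-fold and 3.30-fold higher in BMCP, short of the 4-fold limit: 813 against 229 CPM and 2807 against 850 CPM. The other GMP had 117 CPM of Runx1 and 64.6 CPM of Lmo4. Within the Gata2-positive GMP, Lmo4 ran from 0.650 through 142 to 5184 CPM. Spi1, which encodes PU.1, was at 121, 401 and 417 CPM, and Myb, a factor of progenitor growth, at 268, 705 and 573 CPM. Gata1, the partner and successor of Gata2 in red cells, eosinophils, basophils and mast cells, was at 145 CPM in BMCP, 214 CPM in Gata2-positive GMP and 0.0643 CPM in the other GMP. GMP number 30 gave 71.4% of the Gata2-positive reads of Gata1, and 68.4 CPM remained without it, so that the sign of this difference rests on 1 cell.

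Of 17 cytokine receptors, 4 were past 4-fold towards BMCP and 4 towards Gata2-positive GMP, beside 15.4% and 8.16% of all counted genes. Their median was 0.55, or 1.20 with genes at no read on 1 side set to that floor. The higher ones were Csf2rb2, Il9r, Il4ra and Epor. Il9r, the receptor for the mast cell growth factor interleukin 9, was at 40.5 CPM in BMCP and at 3 reads in Gata2-positive GMP, and was seen in 14 of 86 BMCP. Csf2rb2, the mouse beta chain for interleukin 3, was at 373 and 10.4 CPM (2.29 CPM without GMP number 20), but it is a near-identical copy of Csf2rb and reads of the pair are uncertain. Il4ra was at 91.3 and 20.9 CPM, or 5.95 CPM without GMP number 7. The lower ones were the myeloid receptors Csf1r and Csf3r given above, Il6ra at 0.0831 against 44.4 CPM (28.4 CPM without number 18), and Flt3, which rested on GMP number 18 (0.349 CPM without it). Crlf2, a chain of the receptor for thymic stromal lymphopoietin, was equal at 39.3 and 39.2 CPM.

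Among genes for lipid and amine mediators, Alox5, the lipoxygenase that starts leukotriene synthesis, was at 892 CPM (885 to 898) in BMCP, 198 CPM (192 to 203) in Gata2-positive GMP and 0.386 CPM in the other GMP. In the small side, 7 of 18 cells held 228 to 776 CPM of Alox5 and the other 11 held 0 to 4.77 CPM. Hpgds, the prostaglandin D synthase of mast cells, was at 88.99 CPM in BMCP and at 1 read in Gata2-positive GMP, and reached 100 CPM in 15 of 89 BMCP. Lta4h, which makes leukotriene B4, was lower in BMCP, at 116 CPM against 559 CPM in Gata2-positive GMP and 679 CPM in the other GMP. Of the 9 list members, 2 passed 4-fold in each direction and the median was -0.31 (-0.074 without GMP number 20 and 0.62 without number 30, a change of sign), the other lower one being Ptgs1, at 3.32 CPM in BMCP (1.10 CPM without number 63) and 18.9 CPM in Gata2-positive GMP (8.20 CPM without number 4).

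Genes of DNA replication were lower in BMCP as a list: all 12 S phase genes had log2 ratios below 0, 7 of them at least 4-fold, with a median of -2.12. Mcm5, a subunit of the replicative helicase, was at 59.6 CPM in BMCP, 578 CPM in Gata2-positive GMP and 470 CPM in the other GMP. It ran from 0 through 0 to 1418 CPM in BMCP and from 0 through 457 to 2189 CPM in Gata2-positive GMP, and reached 100 CPM in 11 of 89 and 17 of 18 cells. Mcm2 was at 76.8 and 661 CPM, and Rrm2, a subunit of the enzyme that makes deoxynucleotides, at 13.9 CPM in BMCP (1.47 CPM without number 62) and 235 CPM in Gata2-positive GMP (144 CPM without number 30). The summed S phase level had a median of 655 CPM in BMCP, 3994 CPM in Gata2-positive GMP and 2780 CPM in the other GMP. Of 89 BMCP, 29 lay inside the range of the Gata2-positive GMP, and number 62 was highest at 6344 CPM. The low end of that range was GMP number 24 at 980 CPM, of which Tyms alone gave 969 CPM. Genes of G2 and M phase were less uniform, with 4 of 12 at least 4-fold lower and 1, the cyclin Ccnb1, higher, at 23.3 CPM in BMCP (13.8 CPM without number 29) and 4.95 CPM in Gata2-positive GMP (3.08 CPM without number 12). Their median of -1.12 depended on which BMCP were taken, at 0.15 for numbers 1 to 47 and -4.40 for numbers 48 to 94, and BMCP number 44 alone gave 64.5% of the Cdk1 reads of its side (22.4 CPM, or 8.11 CPM without it, against 148 CPM in Gata2-positive GMP).

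Ribosome biogenesis genes were lower in BMCP for each of the 10 listed, 1 of them past 4-fold, and the list median was -1.30. Npm1, a nucleolar chaperone, was at 242 CPM in BMCP, 743 CPM in Gata2-positive GMP and 762 CPM in the other GMP, and Myc, which drives growth, at 250, 607 and 789 CPM. Npm1 ran from 1.22 through 217 to 835 CPM in BMCP and from 230 through 808 to 1219 CPM in Gata2-positive GMP, 8 of which lay above all BMCP. The 9 housekeeping genes had a median of -0.65 (-0.34 without GMP number 7) and none was past 4-fold, with Actb at 1.07, Eef1a1 at -0.65 and Rplp0 at -0.78, values to be read beside the lists of growth genes. Immediate early genes, which handling can induce, passed 4-fold towards BMCP in 5 of 11 cases, and their median was 1.96 (3.06 without GMP number 3). Junb had 394 CPM in BMCP against 37.1 CPM in Gata2-positive GMP (13.6 CPM without number 30), and Ier3 557 CPM against 60.2 CPM. Fos was uneven on both sides, with 13388 CPM in the shallow GMP number 8 and 10292 CPM in the highest BMCP, and cell medians of 16.96 CPM in BMCP and 0.280 CPM in Gata2-positive GMP. The part of these genes and of the lower gene number of BMCP in the other results was not tested.

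Markers of other lineages were mostly low, with exceptions in BMCP. Of 13 erythroid genes, 3 passed 4-fold towards BMCP and 6 were under 5 CPM on both sides, and the defining globin genes Hba-a1, Hbb-bt and Hbb-bs, which have near-identical copies, did not exceed 2.91 CPM as summed levels on either side. By cell, Hbb-bs reached 115 CPM in the shallow GMP number 8 and 61.7 CPM in GMP number 4. Among the 3 genes past 4-fold were Car1, a carbonic anhydrase, at 228 CPM against 1 read, and Epor, the erythropoietin receptor, at 6.28 CPM, or 3.01 CPM without BMCP number 68, against none. Car1 ran from 0 through 1.78 to 1888 CPM in BMCP, and 29 of 89 reached 100 CPM. The summed erythroid level was 0 to 3036 CPM by cell in BMCP with a median of 514, and 0 to 1825 CPM with a median of 99.1 in Gata2-positive GMP. Of 10 eosinophil genes, 7 were under 5 CPM on both sides, with Ear1, Ear6 and Prg3 at no read. Ccr3 was at 20.9 CPM in BMCP, from few cells, and the Epx reads of Gata2-positive GMP came almost all from number 34, at 265 CPM, the cell that also held all the Prg2 reads. Of 8 megakaryocyte genes, Pf4, Gp6 and Ppbp had at most 1 read, and all 8 lymphoid genes were under 5 CPM. Of 9 stem cell genes, Meis1 and Mycn were higher and Flt3 lower in BMCP past 4-fold, all Mycn reads of Gata2-positive GMP being from number 8, with Procr, Mecom and Slamf1 at 3 reads or fewer per side.

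Genes of the proteins used as gates are no finding. Itgb7, whose protein was gated, had 1433 CPM in BMCP against 72.5 CPM in Gata2-positive GMP, where number 30 with 560 CPM gave 79.97% of the reads and 16.2 CPM remained without it. Numbers 4 and 12 held 163 and 131 CPM. Kit had 1342 CPM in BMCP against 304 CPM in Gata2-positive GMP. Itga4, whose protein is not among the gates named above, had 1428 CPM against 246 CPM (156 CPM without number 30). Cd34 was equal at 521 CPM, and Fcgr3 had 512 CPM in BMCP against 435 CPM in Gata2-positive GMP. Ly6a, the gene of the Sca1 protein, was at 3.23 CPM in Gata2-positive GMP (0.389 CPM without number 31), with no read in BMCP.

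The 18 Gata2-positive GMP were not alike. GMP numbers 24 and 30 had 1789 and 2144 CPM of Gata2, 509 and 1117 CPM of Mpo, 19.7 and 6.72 CPM of Elane, 1554 and 2313 CPM of Ms4a2, and 473 and 1476 CPM of Gata1. Number 20 was similar, with 1068 CPM of Gata2, 1038 CPM of Mpo, 25.6 CPM of Elane and 2581 CPM of Ms4a2. At the other end, number 2 had 106 CPM of Gata2, 54856 CPM of Mpo, 19303 CPM of Elane, 1381 CPM of Cpa3 and no read of Ms4a2. Across the 18 cells, Spearman's rho of Gata2 was -0.73 with Mpo, -0.67 with Elane, -0.71 with Prtn3 and -0.74 with Ctsg, and 0.67 with Ms4a2, 0.55 with Gata1, 0.43 with Slc18a2, 0.41 with Cpa3 and -0.26 with Irf8. Without numbers 24 and 30, rho was -0.62 with Mpo, 0.55 with Ms4a2 and 0.34 with Gata1 over 16 cells. These 9 values describe single cells that share a sorted population and a library pool and were chosen by Gata2 itself, so they carry no p and support nothing.

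Single Gata2-positive GMP held transcripts of both programs. Mpo of at least 1000 CPM and Cpa3 of at least 1000 CPM stood together in 11 of 18 Gata2-positive GMP, in none of 23 other GMP and in none of 89 BMCP. By itself, Mpo reached this limit in 17, 23 and 0 cells of these groups, and Cpa3 in 12, 0 and 75. Below the limit, number 16 of the other GMP held 629 CPM of Cpa3 with 29030 CPM of Mpo. Mpo of at least 1000 CPM stood with Ms4a2 of at least 100 CPM in 6 of 18, and Elane and Ms4a2, each of at least 100 CPM, in 4 of 18. The 4 were numbers 3, 8, 12 and 21. Neither pair occurred in the other GMP or in BMCP. By itself, Ms4a2 reached its limit in 7 Gata2-positive GMP, 0 other GMP and 63 BMCP, and Elane in 15, 23 and 0. Each absence of a pair outside the Gata2-positive GMP thus follows from 1 of its genes. Gzmb of at least 100 CPM was in 88 of 89 BMCP and in no GMP, whatever its Cpa3. These limits were set after the values were seen, and each cell is 1 library in which a second cell could not be told apart. The summed level of the 10 early granulocyte genes ran from 543 through 36890 to 91481 CPM in Gata2-positive GMP and from 1.05 through 9.22 to 2922 CPM in BMCP, so that 15 of the 18 lay above every BMCP. The highest BMCP was number 12. The summed level of the 12 shared genes ran from 1699 through 5958 to 15616 CPM in Gata2-positive GMP, 2417 through 11167 to 49634 CPM in BMCP and 1695 through 2586 to 5207 CPM in the other GMP, and the 3 groups overlapped.

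**Figure D4:**
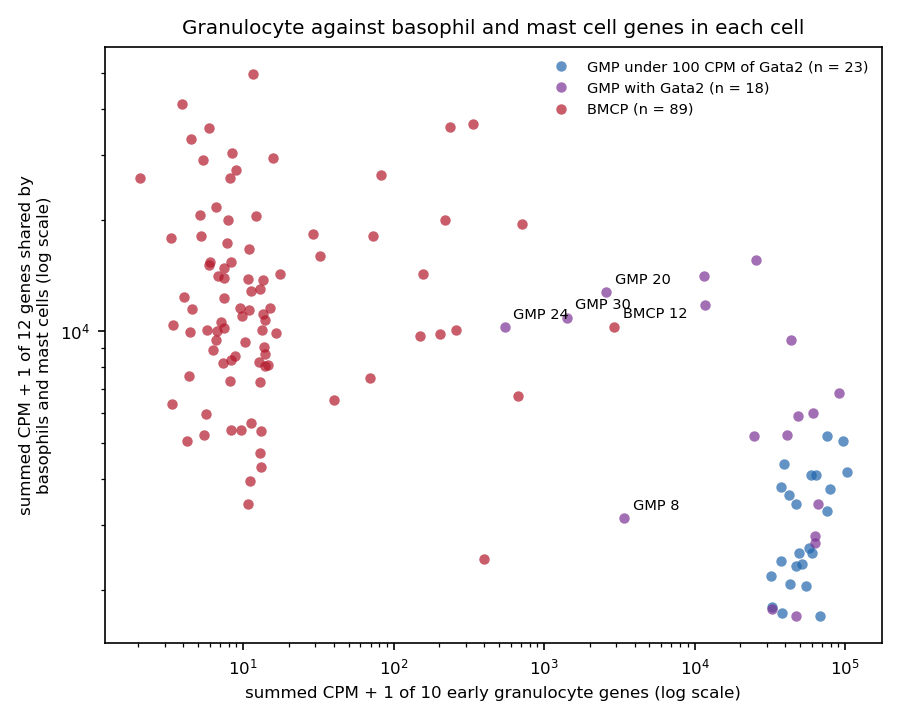
Summed CPM plus 1 of 10 early granulocyte genes (x axis, log scale) against that of 12 genes shared by basophils and mast cells (y axis, log scale) in single cells; colours are the 23 other GMP, 18 Gata2-positive GMP and 89 BMCP. GMP numbers 24, 30 and 20 lie at 543 to 2579 CPM on the x axis, below BMCP number 12 at 2922 CPM, and the other Gata2-positive GMP lie to their right.

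Over the whole transcriptome, most Gata2-positive GMP were closer to the other GMP than to BMCP. Spearman's rho of each cell was taken across 9348 genes with the summed BMCP and with the summed other GMP, leaving the cell itself out of its own sum. Genes are not independent replicates, and the values are a description. In Gata2-positive GMP the rho with the other GMP had a median of 0.52 and the rho with BMCP a median of 0.37. Their difference ran from -0.22 through -0.16 to 0.05, and it was above 0 in 1 of 18 cells, GMP number 24. Number 20 was next, at -0.01, then number 30 at -0.05, number 8 at -0.07 and number 3 at -0.08. The difference was 0.04 to 0.20 in BMCP, above 0 in all 89, and -0.24 to -0.12 in the other GMP, above 0 in none of 23. The shallow number 8 and number 24, with 16.3% spike-in reads, are among the cells nearest 0, and the part of their depth was not tested.

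**Figure D5:**
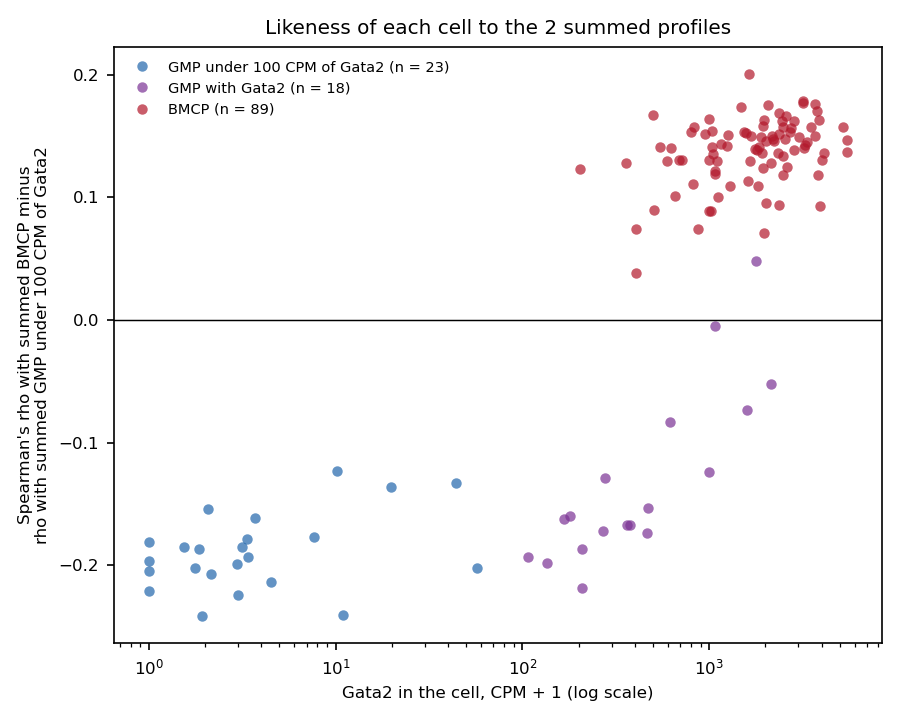
Difference of Spearman's rho with the summed BMCP and with the summed other GMP (y axis) against Gata2 in CPM plus 1 (x axis, log scale) for single cells. All 89 BMCP lie above 0, all 23 other GMP below, and of the 18 Gata2-positive GMP only number 24 lies above, at 0.05.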

How the data were processed

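The authors deposited a table of raw counts, 1 row a gene and 1 column a cell. GSNAP, HTSeq 0.5.3p3 and the build mm10 are named by the submitters' processing notes, and no source used here names the annotation release. Symbols and coordinates of 45143 of 46078 gene rows came from GENCODE vM21, and promoters from RefSeq. Counts of unaligned, ambiguous and unassigned reads stayed out of all totals. The protocol marks no strand, so antisense partners cannot be parted.

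Counts of kept cells were summed per side and scaled to CPM, and compared as log2 of CPM plus a pseudocount of 1. A gene counted with at least 5 CPM on a side and was called past 4-fold. Shares used cells thinned once to 200000 reads and a limit of 2 reads, with exact Clopper-Pearson limits at 95%. The named genes are all list members plus those that size rules took among genes of at least 20 CPM in the higher side: the 12 largest ratios in each direction, and up to 10 each for the carried pattern and for the pattern highest in Gata2-positive GMP. Values of 2 named genes are not reported here. The members and lists were chosen with earlier results of these data known. Replicate numbers only name cells. No 2 cells had identical counts, and no doublet caller was run on these singly sorted cells. The steps were tested on simulated data. Python 3.11.15 with numpy 2.4.6, pandas 2.3.3, scipy 1.17.1 and matplotlib 3.10.9, and R 4.3.3 with edgeR 4.0.16 for TMM factors only, were used.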

Additional observations from a re-analysis of the deposited data

How the results depend on the processing

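With 1 sample a side, no result has a replicate check. The 1812 genes at least 4-fold higher in BMCP became 290 with the median of the cells' CPM, 3361 against the 6 GMP with at least 500 CPM of Gata2, 426 with a pseudocount of 10, 939 with a filter at 20 CPM, 1100 with spike-in scaling, and 3245 and 1018 at limits of 2-fold and 8-fold. The 961 lower genes became 2518 with the median, 282 with a pseudocount of 10, 582 with the filter at 20 CPM, 1670 with spike-in scaling, and 2436 and 474 at 2-fold and 8-fold. A filter, a pseudocount or a limit changes such counts by construction; otherwise the cause was not tested.

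The basophil median of 2.84 became 0 with the median of cells, 1.76 at 500 CPM of Gata2, 1.66 with a pseudocount of 10, 2.16 with spike-ins, 3.75 for BMCP numbers 1 to 47 and 1.46 for 48 to 94, and ran from 2.40 to 3.61 without single GMP or BMCP number 12. The azurophil median of -7.01 became -8.57 with the median of cells, -4.53 at 500 CPM of Gata2, -8.79 and -5.34 with pseudocounts of 0.1 and 10, -7.62 with spike-ins and, in a setting chosen after seeing the data, -7.68 without BMCP number 12, and ran up to -6.85 without single GMP. The median of the shared genes, 1.25, became 0.028 at 500 CPM of Gata2 and 0.57 with spike-ins. With spike-ins the monocyte median became -0.89 and the S phase median -2.79, which was -5.88 with the median of cells. With genes of at least 100 CPM, 2 Gata2-positive GMP, numbers 24 and 20, were nearer BMCP.

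Reversals were sought for list medians of at least 1 in size and for named genes past 4-fold at any CPM. Of these, signs reversed for the G2 and M phase median (0.15 for BMCP numbers 1 to 47), Prss34 (-3.99 for numbers 48 to 94, -3.90 without BMCP number 12, and up to 3.38 without single GMP), Ngp (from -2.29 to 1.85 without single GMP, 1.85 without numbers 24 and 30), Mycn (-0.052 with the mean of cells) and, at 500 CPM of Gata2, Lcn2 (0.017), Epx (0.034) and Ptgs1 (1.35). Smaller values changed sign too, among them the sorting gene median (0.24, and -0.44 with spike-ins). Ms4a2 became -0.35 with spike-ins and -1.23 at 500 CPM of Gata2. The lipid and amine mediator median of -0.31 became 0.56 at 500 CPM of Gata2 and 0.62 without GMP number 30. Of 97 named genes past 4-fold at any CPM, 92 to 97 stayed past it without single GMP and 95 with TMM factors. With spike-ins 85 stayed past it, at 500 CPM of Gata2 70 and with the median of cells 58. Some of the 97 lay under 5 CPM on both sides. No paired analysis was possible because replicate numbers only name single cells and no result comes from a test. With 18 cells, a gene seen in none of 17 thinned Gata2-positive GMP may still be in up to 19.5% of such cells from these mice. That limit does not hold for genes that a size rule chose by their level in the same cells.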
